A study of Mus musculus with 8 samples.

Results

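The microRNAs whose names begin with miR-297, miR-466, miR-467 or miR-669 were followed in mouse embryonic fibroblasts (C57BL/6J) that lack Csk (Csk-/-). All such names on the array were taken, both arms and star forms included, which gave 39 of 611 mouse microRNA names: 3 of miR-297, 14 of miR-466, 10 of miR-467 and 12 of miR-669. The fibroblasts had been transfected with empty vector (mock), with c-Src (Src), with Csk and c-Src (Csk+Src) or with Csk, so the Csk-/- genotype was common to all 4 groups and Csk was present in the last pair only through transfection. Each group had 2 arrays of total RNA, 8 in all, which the labels call biological replicates. The design text speaks only of runs in duplicate, and the p-values measure the spread between these arrays, which may be technical. Where levels were set to a floor, given below, that spread was removed. Whether the transfected cells were pools or clones is not given in the labels or the design text.

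Most genes of these families sit close together in an intron of Sfmbt2, a Polycomb-group gene expressed from the paternal allele in the mouse placenta, and the cluster is known from mouse and rat. A microRNA is cut from a hairpin precursor, either arm of which can give a mature strand, and it recognises messenger RNAs mainly through its seed, bases 2 to 8. Csk phosphorylates the tail of Src family kinases and holds them inactive, and cells without it have unrestrained Src family activity. The arrays measured no messenger RNA, so the transfected genes and Sfmbt2 itself could not be checked here.

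RefSeq, on assembly GRCm38.p6, held mature sequences for 6 names carried by members' probes, all with genes outside Sfmbt2. They are shown to let the members' repeats be compared by eye, and 3 of them belong to tested members. Seeds are in capitals, and the sequences run 5′ to 3′. The first, miR-467f, lies at chr11:69635419-69635439 (minus strand), miR-466i-3p at chr13:17747552-17747573 (plus), and miR-467h at chr9:115381898-115381919 (plus). The array's name for the second is miR-466i, with no arm, and miR-467h shares the miR-669d probe. The members miR-467g at chr5:34732872-34732892 (minus), miR-466j at chr10:60960802-60960824 (plus) and miR-466k at chr3:85467396-85467418 (plus) were detected on 0 of 8 arrays.
miR-467f: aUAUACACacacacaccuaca
miR-466i-3p: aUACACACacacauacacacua
miR-467h: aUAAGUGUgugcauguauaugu
miR-467g: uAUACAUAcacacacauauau
miR-466j: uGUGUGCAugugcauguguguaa
miR-466k: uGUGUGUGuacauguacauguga
All 6 seeds differ. Purines and pyrimidines alternate over most of each sequence, at 18 of 20 steps in miR-467f and at 21 of 22 in miR-466j and miR-466k. In the best ungapped alignment miR-467f and miR-467g had 17 identical bases of 21, and miR-467f and miR-466i-3p had 16, while at the low end miR-466i-3p and miR-466j had 7 and miR-467f and miR-467h had 8. miR-467f was detected on 7 of 8 arrays and miR-467g on 0 of 8.

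In the GRCm38.p6 annotation, used for names and neighbours because the deposited files name no build, 81 genes belonged to the 4 families and 71 of them lay inside Sfmbt2, with 10 elsewhere. Of the 39 members, counting every name their probes carry, 29 had genes only inside Sfmbt2, 5 had genes both inside and outside, and 5 had genes only outside. Several mature names came from many genes: miR-669a had 12, miR-467a had 10 and miR-466b had 8. Probes of 6 members carried further names of the families, among them miR-466a-3p (also miR-466b-3p, miR-466b-3-3p, miR-466c-3p and miR-466e-3p), miR-467a* (also miR-467d*), miR-669b (also miR-297a and miR-466f) and miR-669d (also miR-467h). For such members a level is that of sequences from several genes, while others, among them miR-669f and miR-467b, had 1 gene and 1 name on their probes. Near-identical members may also bind each other's probes.

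As most members lie inside this gene, the windows from 250 bases before to 50 after the 2 starts that RefSeq gives Sfmbt2 on GRCm38.p6 are shown here, both on the plus strand, with CG pairs in capitals. The first lies at chr2:10370201-10370500 and the second at chr2:10372186-10372485.
Sfmbt2 start 1: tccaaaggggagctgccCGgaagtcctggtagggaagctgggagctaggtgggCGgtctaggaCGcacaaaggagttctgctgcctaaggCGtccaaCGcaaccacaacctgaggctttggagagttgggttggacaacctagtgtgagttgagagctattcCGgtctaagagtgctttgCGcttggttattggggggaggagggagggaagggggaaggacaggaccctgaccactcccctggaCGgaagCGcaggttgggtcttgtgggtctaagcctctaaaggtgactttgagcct
Sfmbt2 start 2: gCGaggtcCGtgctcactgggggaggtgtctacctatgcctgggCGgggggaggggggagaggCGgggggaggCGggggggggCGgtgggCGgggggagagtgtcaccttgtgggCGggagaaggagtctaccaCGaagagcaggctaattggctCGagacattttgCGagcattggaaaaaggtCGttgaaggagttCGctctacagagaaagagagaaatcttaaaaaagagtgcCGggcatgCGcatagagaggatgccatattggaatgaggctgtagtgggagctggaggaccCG
The first window held 9 CG pairs, and 45.8% of 32851 mouse promoter windows held at least as many. The second held 16, and 33.0% of windows held at least as many. The letters TGANTCA (the AP-1 motif) and TTCNNNGAA (a STAT motif) were searched on both strands, and each had 0 matches in both windows, against 7.81% and 8.30% of all windows that held them.

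**Figure D1:**
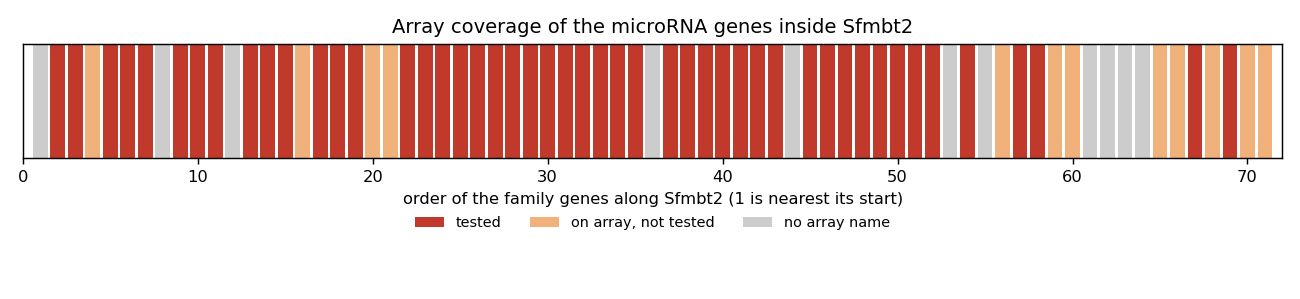
The 71 genes of the 4 families inside Sfmbt2 in their order along the gene (x axis, gene number from its start), coloured by whether a microRNA name of the gene was tested (48 genes), was on the array and not tested (12) or had no array name (11). Tested genes fill most of the row up to gene 58, and the genes shown as tested at 67 and 69 are copies of miR-297a, whose name stands on the miR-669b probes.

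Whether a microRNA was above background was taken from the scanner software's own flag. To enter the test a microRNA had to be detected on both arrays of some group, which held for 15 of the 39 members and 243 of all 611. By array name the 15 were 4 of miR-466, 6 of miR-467 and 5 of miR-669, with 0 of miR-297. The probes of miR-669b, a tested member, also carry miR-297a. Of the other 24 members, 22 were detected on no array, and miR-297a* and miR-466h were each detected on Src array 1 alone. The signal of those 24 ran from -8.20 to 13.4 units, with a median of -0.49, and apart from those 2 detections they gave no level here. By their own names, tested members' genes reached gene 58 of 71 in order along Sfmbt2. Since the tested members themselves set that limit, the 9 members whose genes all lie beyond it had 0 tested by construction. Of 23 members with a gene at or before it 12 were tested. Gene 58 is a copy of miR-669a, a name with 12 genes, and which copy gave the signal is not known. Counting only the array's own names, 7 hairpin names had both arms on the array. Of these, 4 had 1 arm tested (miR-466a-3p, miR-466f-3p, miR-467b and miR-467e), miR-467a had both, and miR-466d and miR-669h had neither. Further names on the probes were left out of this count. Among them is miR-466c-3p, on the tested miR-466a-3p probes, whose other arm miR-466c-5p was also tested.

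The miR-466, miR-467 and miR-669 families were detected in mock, Src and Csk+Src cells and hardly at all in Csk cells. Of the array's own miR-297 names only miR-297a* was detected, on Src array 1. The miR-669b probes, detected on 5 arrays, also carry the name miR-297a, and which of their names gave that signal is not known. Of the 39 members, the mock arrays detected 15 and 13, the Src arrays 17 and 15, the Csk+Src arrays 13 and 11, and the Csk arrays 2 and 1. As shares these were 38.5% and 33.3%, 43.6% and 38.5%, 33.3% and 28.2%, and 5.13% and 2.56%. The 572 other mouse microRNAs showed no such gap: 39.5% and 35.0% of them were detected on the Csk arrays and 37.1% to 40.7% on the other 6.

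The members formed a small part of the measured microRNA signal. The 15 tested members made up 0.238% and 0.234% of the summed mouse microRNA signal on the mock arrays, 0.266% and 0.254% on the Src arrays and 0.217% and 0.223% on the Csk+Src arrays. On the Csk arrays they made up 0.0539% and 0.0550%. The Csk arrays lay below the other 6 without overlap.

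**Figure D2:**
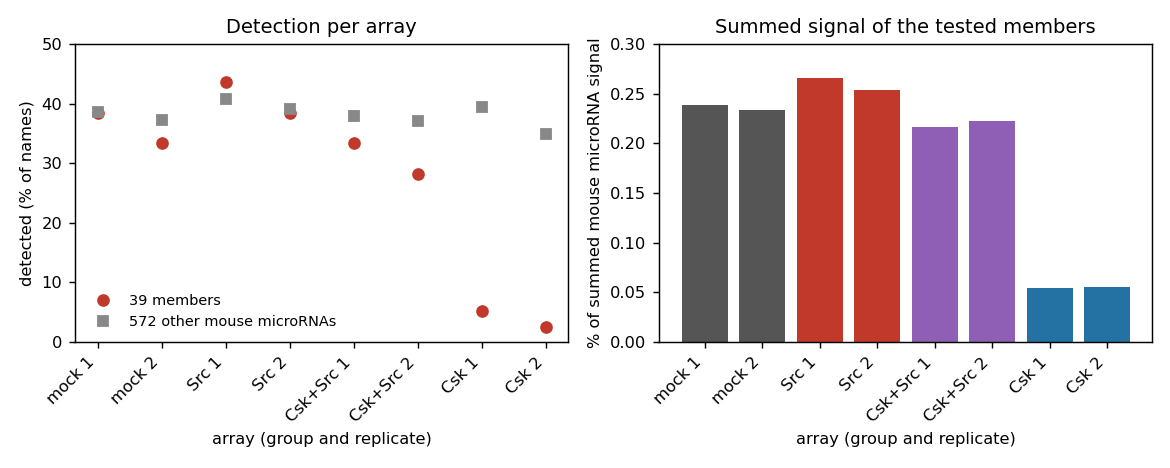
Left, the percentage of names detected on each array (y axis) for the 39 members (circles) and the 572 other mouse microRNAs (squares); right, the summed signal of the 15 tested members as a percentage of the summed mouse microRNA signal on each array (bars, 1 per array). Members were detected at 28.2% to 43.6% on 6 arrays and at 2.56% to 5.13% on the Csk arrays, while the others stayed between 35.0% and 40.7%.

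Facts of the arrays bear on these low signals. Each array detected 201 to 250 mouse microRNAs, with the fewest on Csk array 2, which also had 753 spots marked as outliers against 276 to 372 on the others. Negative control spots averaged 1.44 to 2.67 units of background-subtracted signal with an SD of 2.19 to 2.75 over the arrays, with 2.60 and 1.44 on the Csk arrays. All arrays were on 1 slide with each group in a slide column of its own, so column and group cannot be told apart, and with each replicate number in a row of its own. With the row as a block, the 9 falls in Csk against mock given below still numbered 9. Of 7 microRNAs used as fibroblast markers 6 were detected, 5 of them on every array. Among the 6 tested, 2 were called higher and 3 lower in Csk than in mock cells. Their list had a summed scaled level of 31.7 to 37.4 in Csk and 32.4 to 35.9 in mock cells. In Csk+Src against mock 0 were called higher and 5 lower. Of 5 epithelial markers 1 was detected, on 1 Csk array, and their summed scaled level was 0.0399 to 0.0460 in Csk and 0.0192 to 0.0233 in mock cells. Keratinocyte markers (0 of 2) and the miR-302 cluster of stem cells (0 of 7) were not detected, and 1 of 7 blood, 2 of 4 muscle, 2 of 4 neural and 2 of 2 endothelial markers were. From mock to Csk cells the summed scaled level of the endothelial list went from 0.0629 to 0.0662 up to 0.0966 to 0.0971 and that of the neural list from 0.0779 to 0.0806 up to 0.0949 to 0.104, with 1 member of each called higher. The muscle list went from 0.0602 to 0.0652 down to 0.0444 to 0.0472, with 1 member called lower, and the blood list, at 0.0526 to 0.0642 and 0.0469 to 0.0556, also had 1 called lower. The miR-290 to miR-295 cluster of mouse embryonic stem cells had 3 of 14 names detected, at a summed scaled level of 0.164 to 0.183 in Csk and 0.182 to 0.219 in mock cells. Of its 3 tested names, however, 1 was called higher and 0 lower in Csk than in mock cells. The part of these markers in the results was not tested.

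For the test, each level was the summed probe signal divided by a 75th percentile of the same array, taken over 187 microRNAs that every array detected, on a log2 scale. Levels under a floor of -5.69, which equals 11.8 to 15.6 signal units, were set to it. Both Csk arrays of 13 tested members lay at the floor, so these members had no spread in Csk cells by construction. Their SEs and p-values hold no measured spread between Csk arrays and may be too small. Differences below are log2 differences of group means with SEs from limma over 243 microRNAs, and a microRNA passed at a Benjamini-Hochberg adjusted p under 0.05. Levels of different microRNAs cannot be set against each other, since each has its own probes. In RNA of whole cultures, fewer cells with a microRNA and less of it per cell cannot be told apart.

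Csk alone against mock, which asks what Csk does to cells without added c-Src, gave falls and losses of detection in the miR-466, miR-467 and miR-669 families. Of the 15 tested members 9 fell and 0 rose, where 16.9% of all 243 microRNAs fell, 38.3% rose and 55.1% passed in either direction. Only miR-669f was detected on both Csk arrays. The rest entered the test through groups in which their signals were higher, which limits every comparison with the Csk arrays. The median log2 difference was -0.47 over the 15 members and 0.07 over all 243. The floor makes the members' median smaller. Without it, with signals under 1 set to 1, the medians were -2.23 and 0.08, from Csk signals that were mostly not detected. Of 13 members detected on both mock arrays, 11 (84.6%) were detected on neither Csk array, against 5 of 211 other microRNAs (2.37%). Among microRNAs with a mock level under -3.5, a limit chosen after the values were seen, these counts were 11 of 12 members and 5 of 76 others.

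miR-669f, from gene 3 of the 71 in order along Sfmbt2, was the one member detected on all 8 arrays. Its levels were -2.99 and -2.88 in mock, -2.55 and -2.49 in Src, -2.82 and -2.79 in Csk+Src, and -4.85 and -4.63 in Csk cells. In signal units the mock arrays gave 79.4 and 85.4 and the Csk arrays 24.5 and 24.7. Csk cells stood apart from the other 3 groups, and the difference from mock was -1.81 (SE 0.08, adjusted p = 7.03e-05), a 3.49-fold fall.

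miR-467b and miR-669a went from detected on all 6 other arrays to undetected on both Csk arrays. miR-467b was at -3.80 and -3.76 in mock, -3.60 and -3.63 in Src and -4.18 and -4.16 in Csk+Src cells, and at the floor on both Csk arrays, where its signal was 6.2 and 6.2 units. It was at least 3.75-fold lower in Csk than in mock cells (adjusted p = 1.73e-06). miR-669a, the name with 12 genes in the cluster, was at -4.13 and -4.10 in mock, -3.88 and -3.87 in Src and -4.42 and -4.40 in Csk+Src cells. Its Csk signals of 7.3 and 4.9 units were not detected, a fall of at least 2.97-fold (adjusted p = 1.73e-06). In both members the Csk arrays gave only a bound and lay below all others.

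miR-467a, with 10 genes in the cluster, was at -4.43 and -4.51 in mock, -4.40 and -4.36 in Src and -4.72 and -4.80 in Csk+Src cells, and was not detected in Csk cells, where it was at least 2.32-fold lower than in mock (adjusted p = 2.87e-05). miR-466a-3p, whose probes serve 5 names, was at -5.19 and -5.26 in mock, -4.54 and -4.46 in Src and -4.66 and -4.62 in Csk+Src cells. With no detection on the Csk arrays, it was at least 1.38-fold lower in Csk than in mock cells (adjusted p = 0.000394). In both members the Csk arrays were the lowest of the 8, and miR-466a-3p had its lowest detected levels in mock cells.

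Members nearer the floor gave smaller bounds. miR-466c-5p was at -5.06 and -5.03 in mock, -5.02 and -5.10 in Src and -5.38 and -5.28 in Csk+Src cells, and at least 1.56-fold lower in Csk than in mock cells (adjusted p = 0.000223). miR-669c was at -5.12 and -5.13 in mock, -5.21 and -5.13 in Src and -5.60 and -5.65 in Csk+Src cells, and at least 1.47-fold lower in Csk cells (adjusted p = 0.000198). miR-467e, detected on 1 of 2 mock arrays, was at -5.46 and -5.40 in mock and -5.32 and -5.28 in Src cells and at the floor on all Csk+Src and Csk arrays, a fall of at least 1.19-fold in Csk cells (adjusted p = 0.00123). The order of the Csk arrays below the mock arrays held for all 3 of these members.

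miR-467f, whose gene lies outside Sfmbt2, also fell. It was at -4.87 and -4.96 in mock, -5.03 and -5.11 in Src, -5.31 and -5.30 in Csk+Src and -5.52 and -5.30 in Csk cells, and was detected on 1 of 2 Csk arrays. The difference was -0.49 (SE 0.08, adjusted p = 0.00393). The difference between this fall and that of any other member was not tested. miR-466i, the other tested member outside the gene, was at -5.27 and -5.68 in mock cells, -5.66 and -5.68 in Src cells and at the floor elsewhere, and did not pass (adjusted p = 0.216).

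The 9 falls passed in all 8 fits that left out 1 array, kept their sign in 4 of 4 other scalings, and 8 of them passed in all 4. With the mean of log2 over probes in place of the sum, 5 fell, and miR-466a-3p, miR-466c-5p, miR-467e and miR-669c were at 0, with each single probe at the floor in both groups. At the level of single probes, 28 of 31 had every Csk array below every mock array and 0 had the reverse, against 29.5% lower and 42.3% higher of the 613 probes of all tested microRNAs. After the normexp background correction, which moved the median of all microRNAs to -0.29 and that of the members to -0.58, of the 15 members only miR-669f passed (adjusted p = 0.0341).

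**Figure D3:**
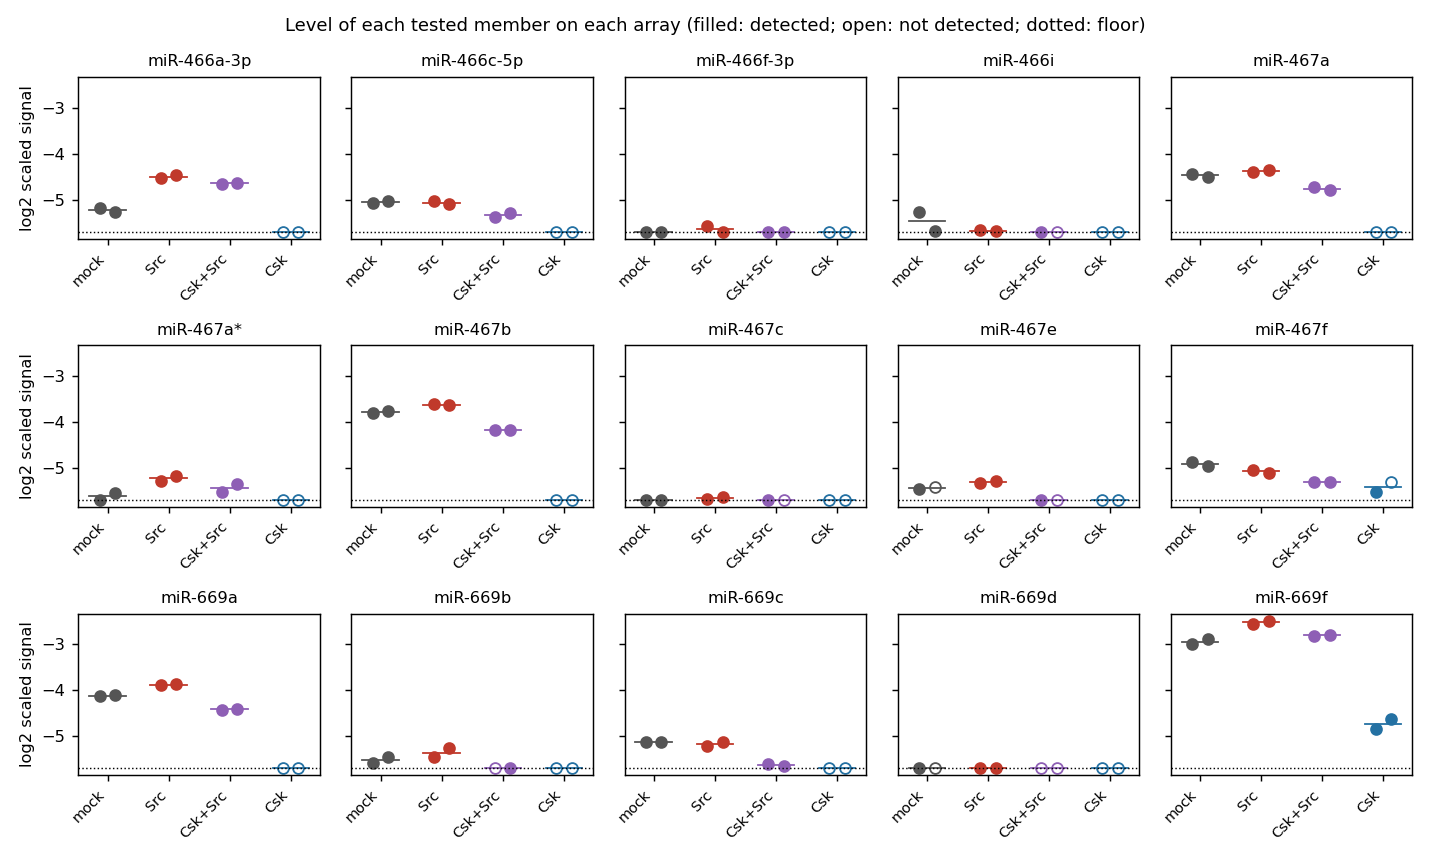
Level (y axis, log2 scaled signal) of each of the 15 tested members on each array, by group (x axis), with filled circles for detected, open circles for not detected, short lines for the mean of the 2 arrays and a dotted line for the floor of -5.69. In 13 of the 15 panels both Csk arrays lie at the floor, the exceptions being miR-669f and miR-467f.

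The next comparison, Csk+Src against Csk, asks what c-Src does where Csk has been put back. Of the 15 members 7 rose and 0 fell, while 19.3% of all microRNAs rose, 41.6% fell and 60.9% passed in either direction. The members' median was 0.10 and that of all microRNAs was -0.15. Several members lay at the floor in both groups, which gives a difference of 0. Without the floor the medians were 2.37 and -0.18, again from Csk signals mostly not detected. This comparison uses the same Csk arrays as Csk against mock, so the pair are not independent. It has the same limit, that all members but miR-669f entered the test through groups other than Csk. Of 10 members detected on both Csk+Src arrays, 8 (80%) were detected on neither Csk array, against 4 of 210 others (1.90%).

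miR-669f rose by 1.94 (SE 0.08, adjusted p = 3.10e-05). With levels as given above, miR-467b was at least 2.85-fold higher in Csk+Src than in Csk cells (adjusted p = 5.08e-06), miR-669a at least 2.41-fold (adjusted p = 5.08e-06), miR-466a-3p at least 2.06-fold (adjusted p = 2.98e-05) and miR-467a at least 1.90-fold (adjusted p = 3.70e-05). miR-466c-5p was at least 1.28-fold higher (adjusted p = 0.00122). miR-467a*, the other arm of miR-467a, was at -5.69 and -5.55 in mock, -5.28 and -5.17 in Src and -5.53 and -5.35 in Csk+Src cells and undetected in Csk cells, and was at least 1.19-fold higher (adjusted p = 0.0437). That last call held in only 2 of 8 fits with an array left out (adjusted p = 0.211 at most), and the other 6 held in all 8. Of 31 probes, 28 had both Csk+Src arrays above both Csk arrays and 0 had the reverse, against 24.1% higher and 45.8% lower of all 613 probes. miR-669c at -5.60 and -5.65 and miR-467f at -5.31 and -5.30 in Csk+Src cells did not pass.

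In cells without Csk, differences between Src and mock were small, and 40% of the members passed, near the share of all microRNAs. Of the 15 members 6 rose and 0 fell, where 25.9% of all microRNAs rose, 18.5% fell and 44.4% passed in either direction. The median was 0.09 for the members and 0 for all microRNAs. All 13 members detected on both mock arrays were detected on at least 1 Src array, as were all but 2 of 211 other microRNAs.

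miR-466a-3p rose the most of the 15, with signals of 17.3 and 16.5 units on the mock and 34.7 and 34.3 units on the Src arrays. Its rise was 0.72 (SE 0.04, adjusted p = 0.000134), without overlap of the arrays. miR-669a rose by 0.23 (SE 0.025, adjusted p = 0.00135) from the levels given above. These 2 calls held in all 8 fits with an array left out, all of which kept a floor. The call of miR-669a, however, was lost without the floor, at the same difference. The others were miR-669f at 0.42 (SE 0.08, adjusted p = 0.0121), miR-467a* at 0.39 (SE 0.08, adjusted p = 0.0155), miR-467b at 0.16 (SE 0.03, adjusted p = 0.00886) and miR-467e at 0.13 (SE 0.03, adjusted p = 0.0210), which held in 4, 6, 7 and 3 of the 8 fits. miR-467e and miR-669d entered the test only through the Src arrays, the one group in which both arrays detected them, so the rise of miR-467e in Src cells is drawn from a member chosen for being high there. Without mock array 1 the count was 3. Without the floor miR-467b and miR-467e, like miR-669a, had the same differences and lost their calls. miR-466a-3p, miR-467a* and miR-669f kept theirs. With the 75th percentile taken over all 611 names 3 members rose and 1 fell. When scaled to the summed signal 4 rose and 1 fell. Of the 31 probes 12 lay higher and 3 lower without overlap, a share of higher probes near that of all 613 (33.3% higher and 31.2% lower). After normexp all 6 were negative, in a fit where the median of all microRNAs was -0.48, and 0 passed.

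In Csk+Src against Src, which compares c-Src cells with and without added Csk, several members were lower. Of the 15, 9 fell and 0 rose, where 29.2% of all microRNAs fell, 15.6% rose and 44.9% passed in either direction. The median was -0.27 for the members and -0.08 for all microRNAs. The comparison shares the Src arrays with Src against mock.

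The largest of these falls were in miR-467b at -0.55 (SE 0.03, adjusted p = 8.42e-05), miR-669a at -0.54 (SE 0.025, adjusted p = 8.41e-05) and miR-669c at -0.45 (SE 0.04, adjusted p = 0.000385). miR-467e at -0.40 (SE 0.03, adjusted p = 0.000341) and miR-467a at -0.38 (SE 0.04, adjusted p = 0.00126) followed, and these 5 held in all 8 fits with an array left out. For miR-467e the Csk+Src arrays lay at the floor, which sets the size, and its fall has the same limit of choice through the Src arrays. miR-669b, which was at -5.58 and -5.45 in mock, -5.46 and -5.26 in Src cells and at the floor elsewhere, changed by -0.33 (adjusted p = 0.0196), miR-669f by -0.29 (adjusted p = 0.0373) and miR-466c-5p by -0.27 (adjusted p = 0.00607), in 3, 1 and 7 of those fits. miR-466a-3p at -0.14 (adjusted p = 0.0382) held in 2 and changed sign with a percentile over all mouse microRNAs and with quantile normalization. Of the 31 probes 24 had both Csk+Src arrays below both Src arrays and 0 had the reverse, against 42.3% lower and 22.5% higher of all 613 probes. Of 4 other scalings, miR-669b passed in 2, miR-669f and miR-466c-5p in 1 each and miR-466a-3p in 0.

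The split of higher and lower calls over all microRNAs moved with the scaling. In Csk against mock 93 microRNAs were higher and 41 lower, and 62 and 62 with a percentile over all mouse microRNAs, while 0 members were higher under any of the 4 other scalings and 8 to 15 were lower. In Csk+Src against Csk 47 were higher and 101 lower, and 82 and 58 with that percentile, while 0 members were lower under any scaling and 7 to 14 were higher. For Src against mock the split of all microRNAs was 63 higher and 45 lower, and 41 and 52 with that percentile. For Csk+Src against Src it was 38 and 71, and 63 and 39 with that percentile.

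**Figure D4:**
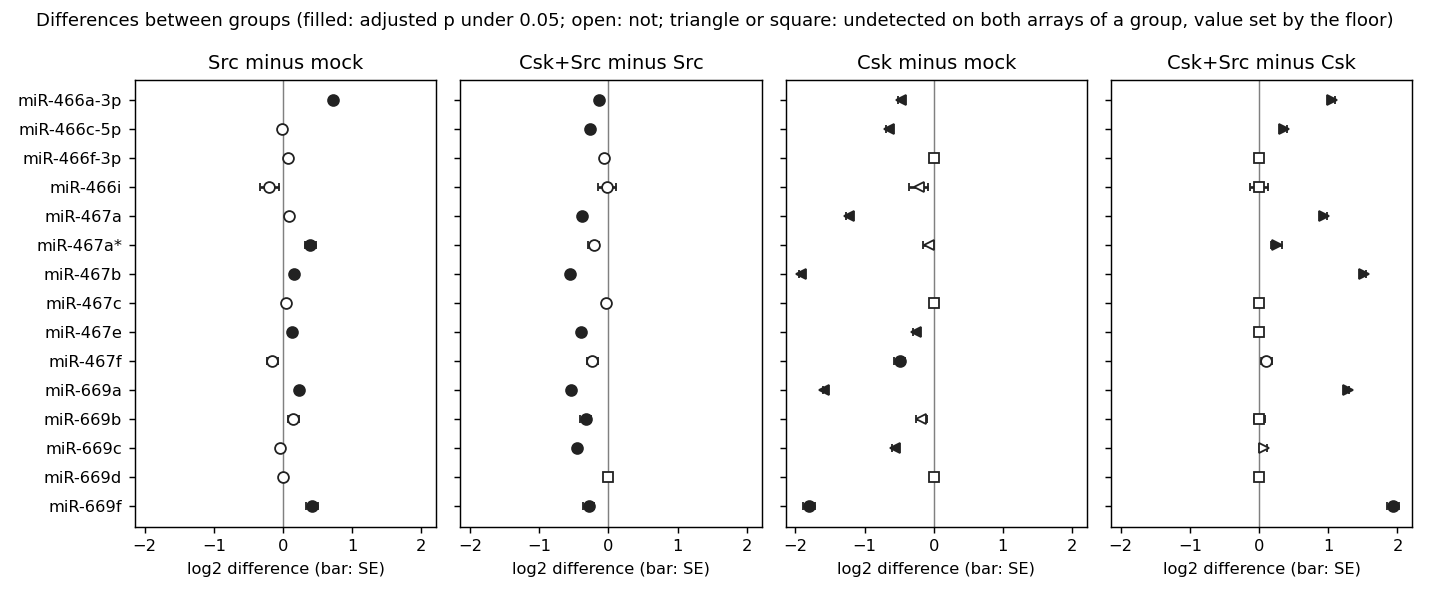
Log2 difference (x axis, bars SE) of the 15 tested members (y axis) in 4 comparisons of 2 groups of 2 arrays each, filled where the adjusted p was under 0.05, with triangles or squares where a member was undetected on both arrays of a group, so that its value is set by the floor. In Csk minus mock the passing members reach from -0.26 to -1.92, in Csk+Src minus Csk they reach from 0.25 to 1.94, and in the other panels all values lie within 0.72 of 0.

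Csk+Src against mock compared cells given both kinases with cells given empty vector. Of the 15 members 1 rose and 7 fell, where 12.3% of all microRNAs rose, 21.8% fell and 34.2% passed in either direction, and the medians were -0.22 and -0.08. miR-466a-3p rose by 0.58 (SE 0.04, adjusted p = 0.000763). miR-669c changed by -0.50 (SE 0.04, adjusted p = 0.000763) and miR-467b by -0.39 (SE 0.03, adjusted p = 0.000763), and these 3 held in all 8 fits with an array left out. miR-669a (-0.30), miR-467a (-0.29), miR-466c-5p (-0.28), miR-467e (-0.26) and miR-467f (-0.39) passed in the fit to all arrays and lost the call in 1 to 6 of those fits. Without Csk+Src array 2 or without Csk array 2 the count of calls was 5. The split of 1 higher and 7 lower became 3 and 4 with a percentile over all mouse microRNAs, 2 and 3 with quantile normalization and 2 and 0 in the unscaled table. miR-466a-3p thus stood on the other side of mock from the rest of the members that passed, and miR-669f, at 0.13, did not pass (adjusted p = 0.255).

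Whether the effect of c-Src differed with and without Csk was tested as the interaction, Csk+Src minus Csk less Src minus mock. Of the 15 members 6 were higher and 0 lower, where 13.6% of all microRNAs were higher, 37% lower and 50.6% passed in either direction, with medians of 0.20 and -0.17. Without the floor these medians were 1.91 and -0.18. The c-Src effect was larger with Csk for miR-669f, by 1.52 (SE 0.12, adjusted p = 0.000453). For miR-467b (1.36, adjusted p = 2.19e-05), miR-669a (1.05, adjusted p = 2.75e-05), miR-467a (0.84, adjusted p = 0.000338), miR-466c-5p (0.38, adjusted p = 0.00587) and miR-466a-3p (0.33, adjusted p = 0.00599) the Csk level was only a limit. With that level at the limit used for the folds, their interactions were 1.35, 1.04, 0.83, 0.37 and 0.32. That limit is the floor itself on Csk array 1 and -5.68 on Csk array 2, so these values do not check the floor. With the mean of log2 over probes 2 of the 6 passed, and miR-466a-3p was at -0.10. The calls of miR-466c-5p and miR-466a-3p were lost in 1 of 8 fits with an array left out.

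The remaining tested members stayed close to the floor. miR-466f-3p was detected on the 6 arrays of mock, Src and Csk+Src cells with 10.4 to 17.1 signal units, and its Csk signals were 6.2 and 3.9. miR-467c had 10.4 to 15.8 units on the mock and Src arrays, 12.0 and 7.9 on the Csk+Src and 0.4 and -0.5 on the Csk arrays. miR-669d, with 1 probe, was at the floor on all 8 arrays, with its highest signal of 11.3 units on Src array 1. None of these 3 passed in any of the 6 comparisons under the floor used here, and in Csk cells each had its lowest signals.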

How the data were processed

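Per the file headers, the authors scanned 1-color Agilent mouse microRNA arrays and extracted the deposited spot intensity with Agilent Feature Extraction 9.5.3.1, subtracting a fitted spatial background without scaling between arrays; the detection and outlier flags (0 or 1) come from the same deposited files. The deposited series table holds the total gene intensity with values under 1 set to 1 (611 of 611 mouse entries on each array within a relative tolerance of 0.001).

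Spots not marked as outliers were averaged per probe, summed per microRNA, divided by a 75th percentile of the array, taken over 187 microRNAs that every array detected (611.9 to 805.7 signal units), floored at 0.0193 (each array's 5th percentile of its detected microRNAs, median of the arrays), and put on the log2 scale. Group means of the 8 arrays were fitted with limma (version 3.58.1, R version 4.3.3; 4 residual and 5.09 total degrees of freedom), two-sided, with Benjamini-Hochberg adjustment over 243 microRNAs. The fit was tested on simulated data. Figures used matplotlib 3.10.9 in Python 3.11.15. A member undetected on both arrays of a group has a fold that is a lower bound, against the higher of its own level and the lowest detected level of each array. Every tested member is named; untested ones are named if detected anywhere. Members and lists were chosen with earlier results of these data known. Alternatives were 4 other scalings, normexp with an offset of 50, no detection filter, no floor, the mean of log2 over probes, a replicate block and leaving out each array.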

Additional observations from a re-analysis of the deposited data

Results flagged for a closer look

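For 6 members the c-Src effect differed between cells with and without Csk by the interaction term of the limma fit. In miR-669f, measured in all groups, the c-Src effect with Csk exceeded that without it by 1.52 on the log2 scale, and all Csk+Src arrays lay above all Csk arrays. For miR-467b (1.36), miR-669a (1.05), miR-467a (0.84), miR-466c-5p (0.38) and miR-466a-3p (0.33), which were undetected in Csk cells, these fitted values rest on the floor. With the Csk level at the limit used for the folds they were 1.35, 1.04, 0.83, 0.37 and 0.32. That limit lies at or just above the floor, so these values do not check it. All 6 signs held in the 4 other scalings, while 0 of these interactions passed after normexp and miR-466a-3p was at -0.10 with the mean of log2 over probes.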

How the results depend on the processing

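Counts below are of the 15 members. With the normexp background correction 0 passed in Src minus mock, 0 in Csk+Src minus Src, 1 in Csk minus mock, 0 in Csk+Src minus Csk, 0 in Csk+Src minus mock and 0 in the interaction; its offset of 50 is added per spot and exceeds most members' signals. With the unscaled series table the counts in the same order were 11, 11, 15, 14, 2 and 12, and without the floor 3, 7, 15, 14, 6 and 14. With the mean of log2 over probes they were 4, 5, 5, 4, 5 and 2. A percentile over all mouse microRNAs gave 5 in Csk+Src minus Src, and quantile normalization gave 5 there and 5 in Csk+Src minus mock. Leaving out 1 array gave 3 to 7, 6 to 8, 9 to 10, 6 to 8, 5 to 8 and 5 to 7. The replicate block, which is also the slide row, gave 6, 9, 9, 7, 8 and 7. In Csk+Src minus Src miR-466a-3p lost its call (adjusted p = 0.0544) and miR-467a* gained one (adjusted p = 0.0291). In the interaction miR-467e passed as lower (adjusted p = 0.0391). It lay at the floor in Csk+Src and Csk cells, so that value is only its rise in Src cells with the sign turned. Same-numbered arrays deviated from their group means with correlations of -0.09 to 0.44 over 6 pairs of groups. The 3 over 0.1 were 0.29 (mock and Src), 0.27 (mock and Csk+Src) and 0.44 (Src and Csk+Src). The main fit did not pair arrays by number, and a shared effect of the slide row was not tested beyond the block. The cause of these moves was not tested, beyond the offset and the floor themselves. Signs turned as follows. In Src minus mock normexp, with a median of -0.48 over all microRNAs, gave -0.49 for miR-466a-3p, -0.59 for miR-467a*, -0.43 for miR-467b, -0.63 for miR-467e, -0.47 for miR-669a and -0.19 for miR-669f; miR-466c-5p was 0.15 with quantile normalization and 0.29 unscaled, and miR-669c 0.26 unscaled. In Csk+Src minus Src miR-466a-3p was 0.0905 with the percentile over all microRNAs, 0.0519 with quantile normalization, 0.0493 with normexp and -0.1763 to 0.0095 with 1 array left out (positive without Csk replicate 2), and normexp gave 0.051 for miR-466c-5p, 0.0089 for miR-467a, 0.0307 for miR-467e, 0.0295 for miR-669b and 0.0276 for miR-669c. Normexp also gave -0.021 for miR-466c-5p in Csk+Src minus Csk and -0.44 for miR-466a-3p in Csk+Src minus mock (median of all microRNAs -0.47), where quantile normalization gave 0.0634 for miR-466c-5p. In the interaction miR-466a-3p was -0.10 with the mean of log2; unscaled and without a floor, miR-467a* was 2.37 and 2.56, miR-467c 2.13 and 2.92, miR-467e 2.17 and 2.36 and miR-669b 2.19 and 2.60, and miR-466f-3p was 1.02 without a floor. The median over all microRNAs was 0.31 in Src minus mock, -0.23 in Csk+Src minus Src and -0.37 in the interaction when unscaled, and 0.11 in Csk+Src minus Src, 0.11 in Csk+Src minus Csk and 0.13 in the interaction with the percentile over all mouse microRNAs. With 2 arrays a group and signals near background, the number of arrays and the floor limit the precision.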
